A study of Mus musculus with 13 samples.

Results

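RNA-seq of mouse bone marrow hematopoietic stem and progenitor cells (HSPCs) was compared between double mutant cells, labelled Setd2 knockout and Srsf2 mutated (n = 3 libraries), and wild-type cells (n = 2 libraries). The 5 libraries were chosen by their genotype labels alone, from 10 bulk libraries and 13 samples in all. The other bulk libraries came from Setd2 knockout cells (n = 2) and Srsf2 mutated cells (n = 3). They were part of the joint fit of all 10 bulk libraries, and so bear on every p-value below. Their levels are given only beside those of double mutants. According to its title, the study asked how SETD2 acts on mutant SRSF2 in myelodysplastic syndrome, with attention to inflammatory signaling and to suppressive myeloid cells. The protocol text describes lineage-negative, c-Kit-positive cells for the single-cell samples only. There the mice carried Mx1-Cre, an interferon-inducible recombinase, in every group including wild type, with Srsf2P95H/+ (a heterozygous P95H allele) alone or with floxed Setd2, and marrow was taken 4 weeks after pIpC induction in a bone marrow transplant model. Whether the bulk libraries came from the same alleles, induction, transplant and sort is not given in the sources used here, and neither are the age of the mice or the host cells that a transplant leaves. Nor do the labels say that libraries of a group came from separate mice, so p-values measure only the spread between these libraries.

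SETD2 is the histone methyltransferase that places the trimethyl mark on lysine 36 of histone H3 in the bodies of transcribed genes. SRSF2 is a serine/arginine-rich splicing factor that binds exonic enhancer sequences and promotes exon inclusion. Its proline-95 substitutions are recurrent in myelodysplastic syndrome, a clonal disorder in which marrow progenitors give rise to too few functional blood cells. In normal marrow, KIT-positive progenitors commit to granulocytic, monocytic, erythroid, megakaryocytic or lymphoid fates, each with its own transcription factors and effector genes, and inflammatory signaling through NF-kB and interferon shifts that output.

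Each wild-type library held 45176730 or 45499806 counted reads, and the double mutant libraries held 32117387, 47574119 and 50445434. Levels are in CPM, the read count of a gene relative to the scaled total of its library, and are given as mean ± SD unless single libraries are listed. On the first principal component, which held 52.8% of the variance over the 10 libraries, the wild-type libraries lay at -130.2 and -123.2 and the double mutant libraries between 89.2 and 89.6. The sex-linked genes also separated the groups. Xist, the RNA that silences an X chromosome in female cells, was at 486 ± 19.7 CPM in wild type and 7.41 ± 0.565 CPM in double mutants, and the Y-linked helicase gene Ddx3y had no count in wild type and 124 ± 4.39 CPM in double mutants. Genotype and sex therefore cannot be told apart in any gene of this comparison. Srsf2 mutated libraries had Ddx3y at 111 ± 7.91 CPM and Xist at 1.78 ± 0.655 CPM, a pattern like that of the double mutants. Setd2 knockout libraries had no Ddx3y count, as in wild type, but little Xist (0.598 ± 0.0517 CPM), so differences between double mutant and Setd2 knockout cells cannot be told apart from the Y-linked difference either. Setd2 itself (chr9:110532597-110618633, GRCm38) was at 158 and 145 CPM in wild type and 131, 129.6 and 130.2 CPM in double mutants, a log2 difference of -0.22 ± 0.11 (SE) with an adjusted p of 0.0947 in edgeR's quasi-likelihood test with Benjamini-Hochberg adjustment. A count over the whole gene does not check a deletion of part of it. Srsf2 (chr11:116849901-116853094) fell from 263 ± 26.7 to 223 ± 4.03 CPM (adjusted p = 0.0103 in the same test). The call of Srsf2 was lost without wild type replicate 1 (edgeR adjusted p = 0.159) and with a filter of at least 1 CPM in 3 libraries (0.0889), and Setd2 passed the test as lower when only the compared groups were fitted (0.00207) or no filter was set (0.0103).

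The transcriptomes differed widely. Of 19289 tested genes, 6456 (33.5%) were higher and 5697 (29.5%) lower in double mutant cells at an adjusted p under 0.05, which together is 63.0% of all tested genes. Among these, 4548 (23.6%) rose at least 2-fold and 1578 (8.18%) fell at least 2-fold. The library values of the groups did not overlap in 76.8% of tested genes. The median log2 difference over all tested genes was 0.13. Every count of list members against wild type below is read against 33.5% higher and 29.5% lower. Among the 14070 tested protein-coding genes alone, the class of most list members, 29.4% were higher and 38.1% lower. Counts against Srsf2 mutated cells are read against 17.8% higher and 15.9% lower, and counts against Setd2 knockout cells against 26.0% higher and 25.8% lower. The gene lists are descriptive, and no test of a list as a whole was made.

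**Figure D1:**
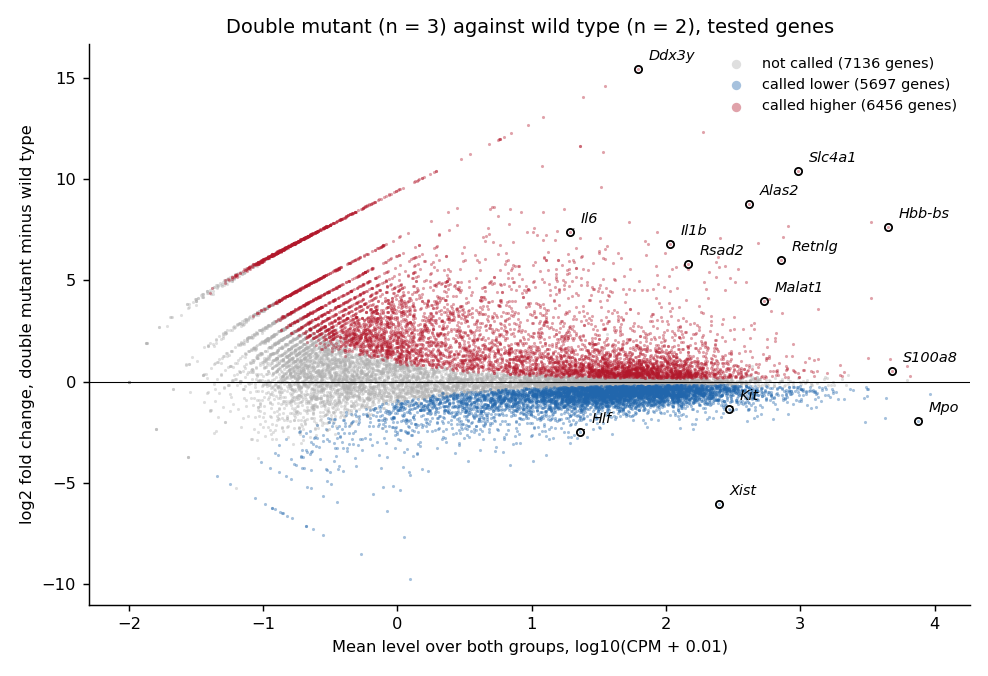
Each point is 1 tested gene, with its mean level on the horizontal axis (log10 CPM) and its log2 difference, double mutant minus wild type, on the vertical axis. Colored points passed the test (6456 higher, 5697 lower), grey points did not, and the labelled genes are described in the text. Red cell genes such as Slc4a1 and inflammatory genes such as Il1b lie well above 0, and Hlf, Kit and Mpo below 0.

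Of 7 genes that define stem and progenitor cells, 5 fell and 2 rose. Kit, which encodes the receptor for stem cell factor, was at 446 and 399 CPM in wild type and 167, 163 and 159 CPM in double mutants. All double mutant libraries lay well below both wild-type libraries, and Kit fell 2.59-fold (log2 -1.37 ± 0.07 SE, adjusted p = 1.72e-10). Myb, a transcription factor of immature progenitors, fell 2.07-fold, and the progenitor surface gene Cd34 fell 1.86-fold. These markers of the labelled cell type were detected in all 5 libraries. Ly6a, the gene of the Sca-1 antigen that interferon also induces, rose from 8.48 ± 0.149 to 26.2 ± 0.665 CPM, and Ptprc, the gene of the leukocyte antigen CD45, rose 2.89-fold from 217 ± 19.4 CPM. In bulk RNA, fewer cells of a type and less RNA per cell cannot be told apart, here and below.

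Of 29 stem cell genes, 20 fell and 2 rose, with a median log2 difference of -0.90. Hlf, a transcription factor of long-term stem cells, was at 39.4 and 38.8 CPM in wild type and 7.69, 6.23 and 7.01 CPM in double mutants, and fell 5.61-fold with the groups far apart. The angiopoietin receptor family member Tie1 fell 4.35-fold, and Flt3, the cytokine receptor gene of multipotent progenitors, fell 2.35-fold. The members that rose were Tal1, a hematopoietic master regulator used in stem cells and erythroid cells (1.65-fold), and Mllt3 (1.51-fold).

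The single mutants differed in these genes. Kit was at 444 ± 14.6 CPM in Setd2 knockout and 206 ± 12.7 CPM in Srsf2 mutated cells. The double mutant level was lower than both, by log2 -1.45 (adjusted p = 1.02e-10) and -0.34 (adjusted p = 0.000806). Hlf followed the same order, with 26.9 ± 0.708 CPM in Setd2 knockout and 9.85 ± 0.812 CPM in Srsf2 mutated cells (log2 -0.50 for double mutant against Srsf2 mutated, adjusted p = 0.0013). Over the stem cell list, 15 of 29 genes were lower in double mutants than in Srsf2 mutated cells, where 15.9% of all tested genes were lower and 17.8% higher, and 23 were lower than in Setd2 knockout cells, where 25.8% were lower and 26.0% higher.

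Neutrophil genes split by stage. Early, primary-granule genes fell in 16 of 18 tested members and rose in 1, while late neutrophil genes rose in 21 of 25 and fell in 1. The summed level of the early list was 32200 and 32760 CPM in wild type and 10670 to 10820 CPM in double mutants. For the late list the sums were 21910 and 29910 against 41790 to 42590 CPM. Both sums were without overlap, in opposite directions.

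Mpo encodes myeloperoxidase, the enzyme of primary granules made in promyelocytes. It was at 11900 and 11920 CPM in wild type and 3114, 3193 and 3075 CPM in double mutants. The 3 double mutant values were close together and 3.81-fold lower on average (log2 -1.93 ± 0.07 SE, adjusted p = 1.06e-12). Prss57, a neutrophil serine protease, fell 5.07-fold. Cst7, a cystatin that restrains lysosomal proteases, fell 4.22-fold. The transcription factors that drive granulocyte commitment were lower as well, with Gfi1 at 210 ± 6.29 against 42.9 ± 2.22 CPM and Cebpa at 348 ± 9.61 against 101 ± 0.78 CPM. Ctsc, the protease that activates the granule enzymes, was the member that rose (2.03-fold). Both single mutants had intermediate Mpo, 6927 ± 416 CPM in Setd2 knockout and 4293 ± 295 CPM in Srsf2 mutated cells, and the double mutant was lower than either (adjusted p = 6.18e-10 and 1.95e-05).

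At the late end, Retnlg, a resistin-like secreted protein of mature neutrophils, was at 24.6 and 20 CPM in wild type and 1418, 1440 and 1401 CPM in double mutants. It rose 63.7-fold (log2 5.99 ± 0.13 SE, adjusted p = 4.32e-15), and every double mutant library was far above every wild-type library. The collagenase gene Mmp8 rose 30.3-fold, the gelatinase gene Mmp9 11-fold, and Il1r2, the decoy receptor for interleukin-1, 14.9-fold. The calprotectin genes were already abundant in wild type. S100a8 was at 3589 and 4369 CPM there and 5522, 5795 and 5719 CPM in double mutants, and S100a9 was at 3995 and 5234 against 8237, 7539 and 7480 CPM. The groups did not overlap for either gene, and the rises were 1.43-fold and 1.68-fold. Ltb4r1, a leukotriene receptor, was the only late member that fell (1.69-fold). All 25 late members were higher in double mutants than in Srsf2 mutated cells and than in Setd2 knockout cells by the same test. Retnlg was at 179 ± 23.1 CPM in Srsf2 mutated and 12.8 ± 0.823 CPM in Setd2 knockout cells.

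Among monocyte and macrophage genes, 18 of 24 rose and 2 fell. Cd14, the co-receptor for bacterial lipopolysaccharide, was at 16.1 and 15.9 CPM in wild type and 109, 109 and 104 CPM in double mutants, and rose 6.7-fold with all double mutant libraries above both controls. Ccr2, the receptor by which monocytes leave marrow, rose 3.41-fold to 222 ± 2.29 CPM, which was below its level in Setd2 knockout cells (401 ± 24 CPM, adjusted p = 2.78e-08). The members that fell were Ly6c2, an antigen of classical monocytes (1.59-fold), and the adhesion molecule Vcam1 (2.8-fold). Csf1r, the receptor for macrophage colony-stimulating factor, rose 1.5-fold. Of 17 myeloid transcription factors, 10 rose and 6 fell. Irf4 (3.71 to 70.7 CPM), Egr2 and Klf4 rose while Gfi1 and Cebpa fell. Several of these genes are counted in other lists too. Irf4 is also in the plasma cell list, Egr2 and Klf4 are in the immediate early list, and Gfi1 is in the early neutrophil list.

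Eosinophil genes rose in 9 of 11 members. Alox15, a lipoxygenase of eosinophils, was at 11.3 and 6.84 against 159, 156 and 159.9 CPM and rose 17.4-fold. The granule major basic protein gene Prg2 rose 2.41-fold, but Epx, the eosinophil peroxidase gene, fell 1.36-fold, so that granule genes of this list did not move together. The mast cell and basophil list rose in 13 of 18 tested genes, and its summed level overlapped between groups (1682 and 1884 against 1823 to 1858 CPM). Cd200r3, a basophil receptor, rose 13.5-fold, while Cpa3, a mast cell protease, fell 1.31-fold, a call that was lost without wild type replicate 1 (edgeR adjusted p = 0.159). Dendritic cell genes rose in 14 of 18 tested members, among them Siglech of plasmacytoid dendritic cells (0.541 ± 0.0332 to 6.25 ± 1.26 CPM).

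**Figure D2:**
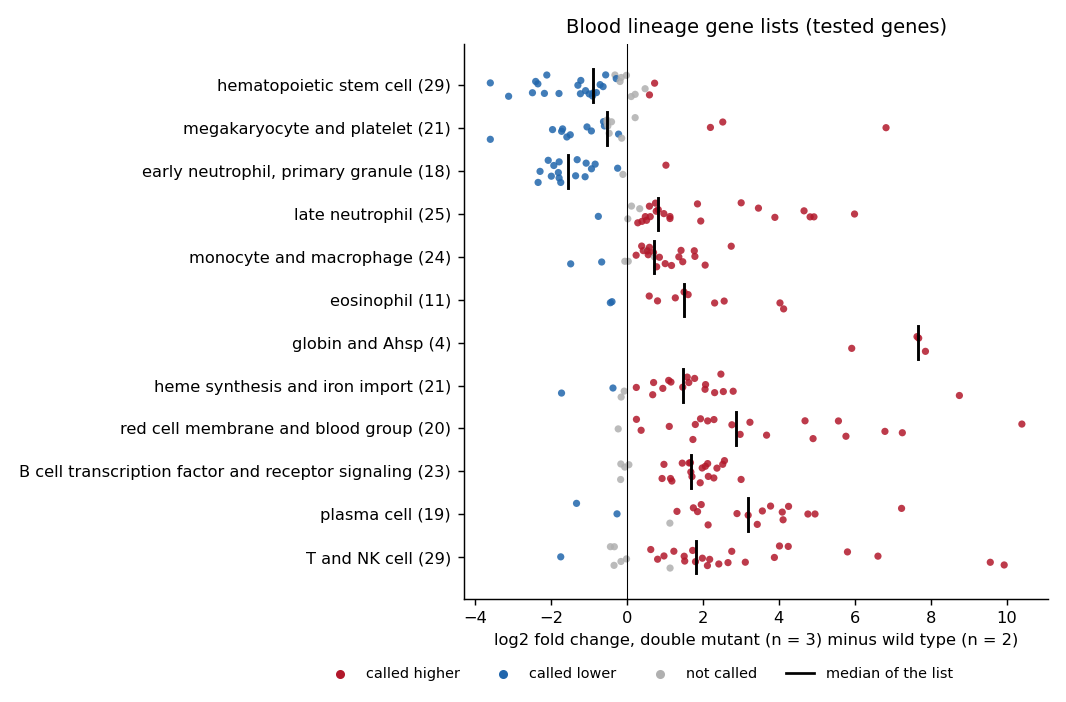
Each point is 1 tested member of a lineage list, placed by its log2 difference, double mutant minus wild type. Colored points passed the test, grey points did not, and black lines are list medians. Stem cell and early neutrophil members lie mostly below 0, whereas late neutrophil, red cell membrane, globin and plasma cell members lie mostly above it.

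Red cell genes were largely higher. All 4 tested globin genes rose, as did 19 of 20 red cell membrane genes and 17 of 21 heme synthesis and iron import genes. Slc4a1 (chr11:102348824-102366203), which encodes band 3, the anion exchanger of the red cell membrane, was at 1.08 and 1.76 CPM in wild type and 1948, 1899 and 1924 CPM in double mutants. This is a 1352-fold rise (log2 10.40 ± 0.16 SE, adjusted p = 1.5e-16), on a wild-type level of 46 and 75 reads. Hbb-bs, an adult beta-globin gene, was at 45.8 and 43.6 against 9345, 9035 and 8338 CPM and rose 199-fold. Globin reads made up 0.00847% and 0.00829% of the wild-type libraries and 1.605% to 1.76% of the double mutant libraries. Reads of the near-identical alpha-globin copies and of the beta-globin copies cannot be assigned with certainty to a single gene.

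Alas2, the erythroid form of the first enzyme of heme synthesis, was at 1.93 and 1.88 CPM in wild type and 832, 828 and 812 CPM in double mutants, and rose 432-fold. Its housekeeping counterpart Alas1 went the opposite way, from 729 ± 27.2 to 220.4 ± 1.59 CPM. Ferrochelatase (Fech), which inserts iron into the porphyrin ring, rose 5.55-fold, and the mitochondrial iron importer Slc25a37 rose 6.94-fold. Among membrane and skeleton genes, Epb42 rose 111-fold and beta-spectrin (Sptb) 29.9-fold.

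The regulators upstream of these genes moved far less. Of 15 erythroid transcription factors and receptors, 7 rose and 5 fell, with a median log2 difference of 0.16. Klf1, the master activator of globin genes, was at 48.8 and 53 CPM in wild type and 120.1, 113 and 124 CPM in double mutants, a 2.34-fold rise. Gata1, the central erythroid transcription factor, was at 43.6 and 45.9 against 73, 76.5 and 67.1 CPM (1.61-fold). The groups did not overlap for either factor. The erythropoietin receptor gene Epor rose 4.07-fold and the transferrin receptor gene Tfrc 2.87-fold. Bcl11a, a repressor of fetal globin, fell 1.38-fold. Without wild type replicate 2, 3 of these regulators fell.

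Red cell genes also differed among themselves in how they related to the single mutants. Klf1 was at 129 ± 8.95 CPM in Setd2 knockout and 21.3 ± 5.25 CPM in Srsf2 mutated cells. The double mutant was above Srsf2 mutated (adjusted p = 3.61e-10), and its difference from Setd2 knockout did not pass the test (log2 -0.11, adjusted p = 0.509). Slc4a1, in contrast, was at 8.73 ± 0.461 CPM in Setd2 knockout and 309 ± 21.9 CPM in Srsf2 mutated cells, and the double mutant exceeded both (log2 7.78 and 2.64). All 20 tested membrane genes were higher in double mutants than in Srsf2 mutated cells, and 16 were higher than in Setd2 knockout cells. Globins rose against each single mutant as well, with Hbb-bs at 2999 ± 417 CPM in Srsf2 mutated and 96.4 ± 3.34 CPM in Setd2 knockout cells.

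Megakaryocyte and platelet genes fell in 11 of 21 tested members and rose in 3. Pf4, a platelet chemokine, fell 3.9-fold to 7.78 ± 0.163 CPM, von Willebrand factor (Vwf) fell 3.22-fold and the integrin gene Itga2b fell 1.92-fold. Thbs1, thrombospondin 1, which platelets and also monocytes make, was at 8.45 and 8.59 CPM in wild type and 964, 952 and 976 CPM in double mutants. It rose 113-fold against the direction of most of its list. Because of Thbs1 and Plek (5.74-fold), the summed level of the list was higher in double mutants (990.1 and 1039 against 2153 to 2204 CPM) although most members that passed the test fell.

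Lymphoid genes were mostly higher in double mutants. Of 23 B cell genes, 19 rose and 0 fell. Pax5, the B cell commitment factor, was at 9.9 and 10.9 CPM in wild type and 49, 44.7 and 43.9 CPM in double mutants. The groups did not overlap, and the rise was 4.41-fold. Pax5 was higher still in Srsf2 mutated cells, at 148 ± 28.6 CPM, and 18 of 23 list members were lower in double mutants than in that single mutant. The surrogate light chain genes Igll1 and Vpreb1 of pre-B cells rose 2.26-fold and 2.32-fold from wild type. Dntt, the template-free polymerase of early lymphoid progenitors, fell 2.25-fold.

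Plasma cell genes rose in 16 of 19 members. Jchain, which links polymeric antibodies, was at 71.3 and 58.9 CPM in wild type and 1122, 1092 and 1109 CPM in double mutants. It rose 17-fold, and Igha, the constant region of IgA, rose 17.3-fold to 6388 ± 169.8 CPM. The secretory chaperone gene Fkbp11 fell 2.51-fold and Xbp1, a secretory pathway factor, 1.2-fold. Both Jchain and Igha were higher in double mutants than in Srsf2 mutated cells (log2 1.07 and 1.03), unlike Pax5. Of 181 tested immunoglobulin variable segments, 167 rose and 4 fell, but reads of such similar segments can be misassigned. T and NK cell genes rose in 22 of 29 members and fell in 1. The T cell gene Cd3e had 1 and 0 reads in wild type and 45, 66 and 66 in double mutants. Nkg7, a granule protein gene of cytotoxic lymphocytes, was the member that fell, from 396 ± 24.1 to 118 ± 2.65 CPM. The same gene is also counted in the early neutrophil list above, most of whose members fell. Nkg7 held most of the RNA of the T and NK list in wild type. The summed level of that list was lower in double mutants (431 and 461 against 242 to 250.2 CPM). The NK cell receptor genes Ncr1 and Klrb1c were under 1 CPM on average in both groups and did not pass the test (adjusted p = 0.753 and 0.473). The levels of B, plasma and T cell markers moved with genotype, and their part in the other results was not tested.

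**Figure D3:**
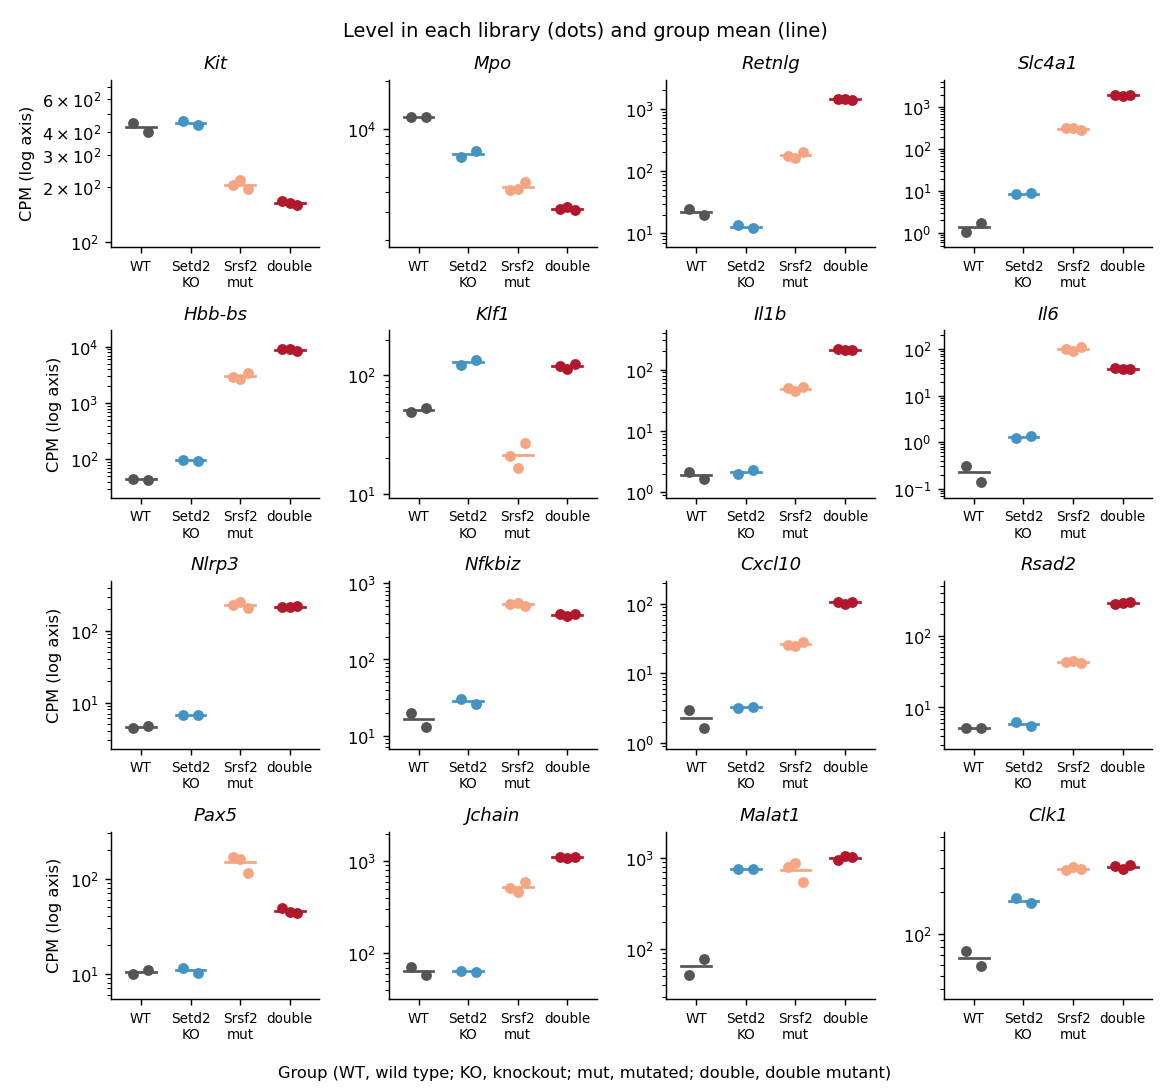
Each panel is 1 gene, each dot 1 library and each line a group mean, with CPM on a log axis for the 4 bulk groups. Kit and Mpo fall from wild type to double mutant, Retnlg, Slc4a1, Hbb-bs and Il1b rise, and Pax5 and Il6 are highest in Srsf2 mutated cells.

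Inflammatory genes were largely higher. Il1b (chr2:129364570-129371139), the gene of the cytokine interleukin-1 beta, was at 2.16 and 1.65 CPM in wild type and 214, 212 and 207 CPM in double mutants. It rose 111-fold (log2 6.79 ± 0.13 SE, adjusted p = 6.52e-16), and the groups were far apart. The inflammasome sensor gene Nlrp3, whose protein leads to the cleavage of pro-interleukin-1 beta, was at 4.47 and 4.66 against 217, 213 and 221 CPM and rose 47.5-fold. Feedback genes rose too, with the receptor antagonist Il1rn up 5.99-fold beside the decoy receptor Il1r2 described above. Il1r1, the signaling receptor, fell 3.1-fold to 4.83 ± 0.246 CPM. Over the interleukin-1 list, 8 of 13 tested genes rose and 3 fell, and over the inflammasome list 11 of 18 rose and 4 fell. Casp4, the caspase that senses cytosolic lipopolysaccharide, rose 2.87-fold, whereas the flagellin-pathway gene Nlrc4 fell 2.1-fold. Nlrp3 was at 229.7 ± 23 CPM in Srsf2 mutated cells, a difference that did not pass the test (log2 -0.08, adjusted p = 0.408), while Il1b was higher in double mutants than there (49 ± 3.4 CPM, adjusted p = 9.13e-12).

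Toll-like receptors and adaptors rose in 14 of 29 genes and fell in 6. Tlr2, which binds bacterial lipopeptides, rose 9.17-fold, and Tlr13, a sensor of bacterial ribosomal RNA, rose 23.5-fold to 92.4 ± 3.54 CPM. Ticam2, an adaptor of the Tlr4 pathway, fell 2.37-fold. Downstream of these receptors, 27 of 33 tested NF-kB subunits, inhibitors and targets rose and 2 fell, with a median log2 difference of 1.54. Nfkbiz, a nuclear co-activator that is itself an NF-kB target, was at 19.5 and 13.1 CPM in wild type and 392, 369 and 390 CPM in double mutants, a 23.6-fold rise without overlap. Map3k8, a kinase of this pathway, rose 12.9-fold, and Zc3h12a, a ribonuclease that degrades cytokine messages, rose 7.84-fold. The subunit genes differed among themselves. Rel was at 35.4 and 31.9 CPM in wild type and 224, 211 and 229 CPM in double mutants, a 6.58-fold rise, and Relb and Nfkb2 rose 4.8-fold and 2.9-fold. Rela was at 138 ± 2.36 and 149.7 ± 4.88 CPM (adjusted p = 0.116), and Nfkb1 fell 1.17-fold. With a filter of at least 1 CPM in 3 libraries Rela passed the test as higher (edgeR adjusted p = 0.00559) and Nfkb1 did not pass it (0.0725), and Rela also passed with median-of-ratios or upper-quartile scaling and in DESeq2.

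For 4 inflammatory genes, Il6, Cxcl2, Cxcl10 and Irf1, the 250 bases before the start are shown, because these genes rose together and their promoters hold the letters of an NF-kB motif. The windows are from RefSeq (GRCm38.p6), read 5′ to 3′ on the strand of the gene. Irf1 has 2 windows, and only the one that holds matches is shown. Capitals mark every match, on either strand, to GGG and CC with 5 bases of any kind between them, and overlapping matches run together.
Il6, chr5:30012864-30013113, plus strand, 3 matches: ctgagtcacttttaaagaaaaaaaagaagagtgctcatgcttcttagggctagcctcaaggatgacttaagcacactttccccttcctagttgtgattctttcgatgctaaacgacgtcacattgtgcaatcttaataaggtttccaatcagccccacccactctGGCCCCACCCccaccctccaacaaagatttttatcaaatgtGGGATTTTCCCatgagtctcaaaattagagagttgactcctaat
Cxcl2, chr5:90903649-90903898, plus strand, 3 matches: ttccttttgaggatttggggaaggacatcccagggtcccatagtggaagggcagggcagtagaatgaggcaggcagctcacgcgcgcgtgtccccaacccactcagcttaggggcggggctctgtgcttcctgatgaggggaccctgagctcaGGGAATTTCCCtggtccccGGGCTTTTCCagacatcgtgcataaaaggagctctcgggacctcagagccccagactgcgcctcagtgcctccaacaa
Cxcl10, chr5:92348890-92349139, minus strand, 3 matches: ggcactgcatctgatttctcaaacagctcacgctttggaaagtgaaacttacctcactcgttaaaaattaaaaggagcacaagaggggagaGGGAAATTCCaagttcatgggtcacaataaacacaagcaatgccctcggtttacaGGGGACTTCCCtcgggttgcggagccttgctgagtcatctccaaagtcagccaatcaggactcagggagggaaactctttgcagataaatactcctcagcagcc
Irf1, chr11:53769764-53770013, plus strand, 4 matches: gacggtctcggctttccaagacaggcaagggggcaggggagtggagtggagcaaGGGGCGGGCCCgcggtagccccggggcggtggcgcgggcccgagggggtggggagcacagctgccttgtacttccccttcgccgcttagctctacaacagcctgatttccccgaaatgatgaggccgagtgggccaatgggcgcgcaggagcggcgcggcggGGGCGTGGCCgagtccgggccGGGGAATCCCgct
The motif is short and degenerate. It stood in the windows of 48.7% of 27025 genes with a window, in 64.0% of the tested genes among them, in 22 of 26 NF-kB list genes (84.6%) and in 8 of 15 chemokine ligand genes (53.3%). For other lists the counts were 19 of 20 cytosolic heat shock genes (95.0%), 17 of 22 AP-1 and EGR genes (77.3%) and 14 of 29 interferon-stimulated genes (48.3%). The list of cytokines outside the interleukin-1 family, which holds Il6, had the motif in 13 of 19 genes (68.4%). A match is a description of letters, and says nothing on whether a factor binds there.

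The genes of these 4 windows rose strongly. Il6, the cytokine interleukin-6, was at 0.306 and 0.141 CPM in wild type and 38.6, 38.3 and 37.6 CPM in double mutants, a 171-fold rise on 13 and 6 wild-type reads. It was higher again in Srsf2 mutated cells at 102 ± 10.6 CPM, and lower in the double mutant than there by log2 -1.42 (adjusted p = 4.57e-09). Cxcl2, a neutrophil attractant, was at 6.85 and 2.4 against 230.5, 218 and 249 CPM and rose 50.3-fold. Cxcl10, an interferon-induced chemokine, was at 2.92 and 1.62 against 108, 102 and 109 CPM and rose 46.8-fold. Irf1, a transcription factor of interferon responses, rose 6.98-fold from 42.5 ± 0.361 to 297 ± 5.08 CPM. No group overlapped the other in any of these genes.

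Over 21 tested chemokine ligands, 16 rose and 1 fell, and their summed level went from 231 and 282 CPM to 1284 to 1376 CPM. The member that fell was Pf4. The monocyte attractant Ccl2 rose 70-fold and the myeloid chemokine Ccl6 35.6-fold. Chemokine receptors rose in 16 of 18 genes, among them Cxcr2, which directs neutrophil release from marrow (8.03-fold), and Ccr1 (22.4-fold). Cxcr4, the receptor that retains cells in marrow, fell 1.3-fold. Other cytokines rose in 14 of 23 tested genes. Oncostatin M (Osm), an interleukin-6 family cytokine, rose 10.9-fold, and Tnf rose 4.29-fold. Tgfb1 fell 2.09-fold and Vegfa 1.28-fold.

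SOCS genes are induced by cytokine signaling through STAT proteins and restrain it. Of 29 genes in the list of SOCS genes, cytokine receptors and their signaling partners, 15 rose and 9 fell, with a median log2 difference of 0.18. Socs3 was at 7.55 and 6.19 CPM in wild type and 492, 482 and 473 CPM in double mutants, and rose 70.2-fold with wide separation of the groups. The STAT target Pim1, a survival kinase, rose 7.47-fold. Stat3 itself was at 236 ± 1.9 and 249.8 ± 5.92 CPM, with an adjusted p of 0.428. Socs3 in Srsf2 mutated cells was at 532 ± 22.8 CPM, and its difference from the double mutant did not pass the test (log2 -0.14, adjusted p = 0.139).

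Interferon-stimulated genes rose in 31 of 41 members and fell in 6, and their summed level was 1022 and 1045 CPM in wild type and 2080 to 2093 CPM in double mutants. Rsad2, which encodes the antiviral protein viperin, was at 5.25 and 5.22 CPM in wild type and 282, 285 and 297 CPM in double mutants. It rose 55.1-fold (log2 5.78 ± 0.10 SE, adjusted p = 4.76e-16). Isg15, a ubiquitin-like modifier, rose 19.9-fold, Oas3, an RNA-sensing synthetase, 3.52-fold, and Ifi204, a DNA sensor, 10.9-fold. Ifit2 and the GTPase gene Ifi47 fell 1.64-fold and 1.31-fold. Of the list, 33 of the 41 members were higher in double mutants than in Srsf2 mutated cells and 29 were higher than in Setd2 knockout cells. Rsad2 was at 43 ± 1.92 CPM in Srsf2 mutated and 5.82 ± 0.509 CPM in Setd2 knockout cells. For the 33 NF-kB genes these counts were 12 higher and 4 lower than in Srsf2 mutated cells, and 30 higher and 0 lower than in Setd2 knockout cells.

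Antigen presentation moved less. MHC class II genes rose in 5 of 11 members and fell in 2, with the invariant chain gene Cd74 at 138 ± 6.95 against 256 ± 5.76 CPM. MHC class I genes rose in 4 of 16 and fell in 6, and the peptide-loading genes Tapbp and Tap1 were among those that fell (1.72-fold and 1.34-fold).

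The study names suppressive myeloid cells, which dampen T cell responses. Of 33 genes of their effectors and receptors, 21 rose and 3 fell. The classical effectors were low in all 5 libraries. Arg1, arginase 1, was at 0.165 and 0.0941 CPM in wild type and 0.587, 1.09 and 1.03 CPM in double mutants (6.99-fold, adjusted p = 0.00159). Nos2, inducible nitric oxide synthase, had no read in wild type and 0.815, 0.787 and 0.62 CPM in double mutants, which is at least 21-fold higher against a floor of 3 reads over both wild-type libraries. Receptor genes of activated myeloid cells were more abundant. Cd33 was at 38.2 and 43.7 CPM in wild type and 389.5, 388 and 387 CPM in double mutants and rose 9.48-fold. The activating receptor Trem1 rose 5.15-fold and the lectin Clec4d 23-fold. Olr1, a scavenger receptor used as a marker of such cells in humans, fell 1.79-fold. Of the list, 20 of 33 genes were higher in double mutants than in Srsf2 mutated cells and 25 were higher than in Setd2 knockout cells.

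Immediate early genes of the AP-1 and EGR families rose in 25 of 28 members and fell in 1, with a median log2 difference of 2.34. Egr3, a zinc-finger factor induced by receptor signals, was at 0.612 and 0.8 CPM in wild type and 61.9, 60.8 and 64.4 CPM in double mutants, an 88.4-fold rise. The AP-1 family genes Maff and Fosl2 rose 10.4-fold and 10.2-fold, and Btg1, an anti-proliferative gene, rose 5.97-fold. Myc, the growth-promoting factor, was the member that fell (2.91-fold, to 135 ± 8.62 CPM). The stress-inducible heat shock genes Hspa1a and Hspa1b, near-identical copies whose reads can be misassigned, rose 80.8-fold and 51.5-fold. Constitutive co-chaperones such as Stip1 and Ahsa1 fell 1.44-fold and 1.49-fold, and over the heat shock list 13 of 25 genes rose and 8 fell. Immediate early and stress genes also respond to cell isolation, and the part of handling in their change or in that of the inflammatory genes was not tested.

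The unfolded protein response list fell more often than it rose, with 15 of 30 genes lower and 10 higher. Among those that fell were Hyou1, a chaperone gene of the endoplasmic reticulum, at 549.5 ± 10.5 against 240.1 ± 6.63 CPM, and Sdf2l1, a partner of such chaperones (2.57-fold). Ppp1r15a, which ends the translational block of the integrated stress response, rose 7.27-fold, and the stress gene Sesn2 rose 2.99-fold. Among p53 targets 11 of 24 rose and 5 fell, or 3 fell without wild type replicate 1. Gadd45a, which slows the cell cycle after damage, rose 7.25-fold, and Mdm2, the ligase that degrades p53, rose 2.73-fold, while Trp53 itself fell 1.72-fold. In the BCL2 family, 8 of 16 tested genes rose and 6 fell. The survival gene Mcl1 was at 278 and 242 CPM in wild type and 1045, 1034 and 1059 CPM in double mutants. The pro-apoptotic genes Bbc3 and Pmaip1 rose as well (6.21-fold and 9.48-fold).

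**Figure D4:**
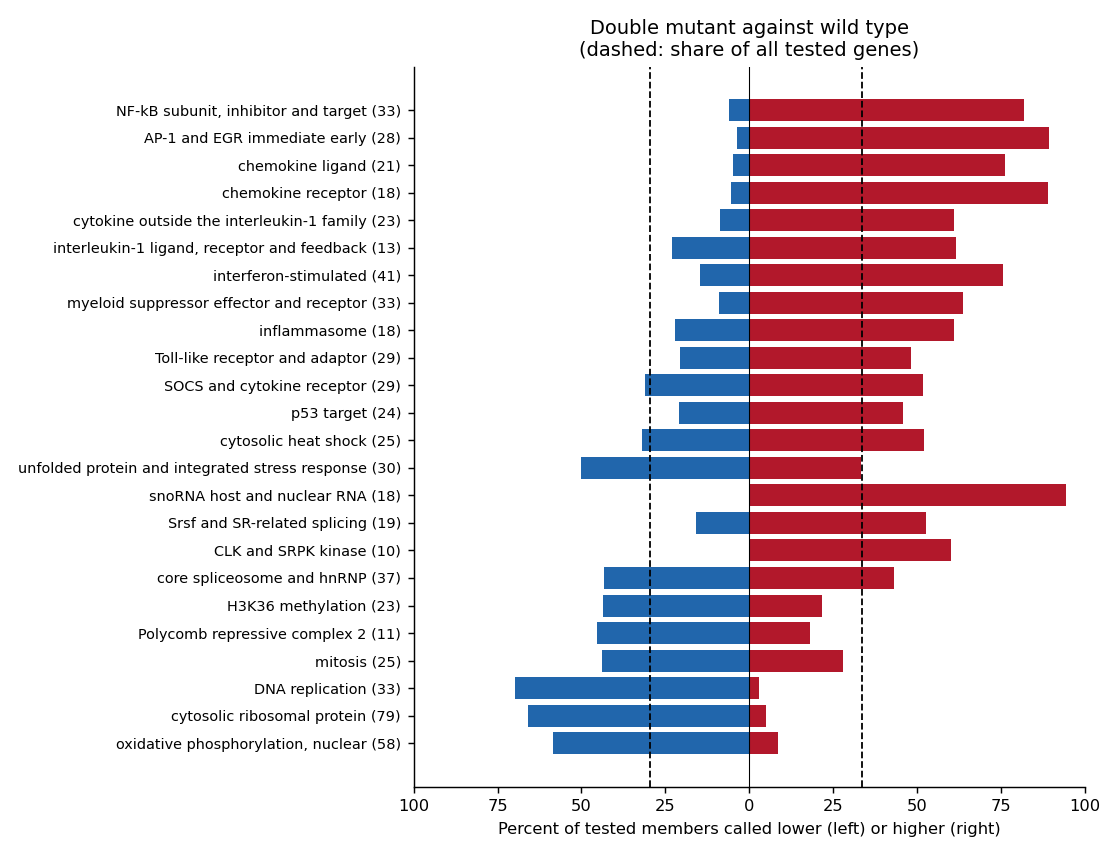
For each list the bars give the percent of tested members that were called higher (right) and lower (left) in double mutants, and dashed lines mark the background over all tested genes, 33.5% higher and 29.5% lower. NF-kB, immediate early, chemokine and interferon-stimulated lists extend beyond the background line on the right, and DNA replication and ribosomal protein lists beyond it on the left.

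DNA replication genes fell in 23 of 33 members and rose in 1, from summed levels of 7259 and 7279 CPM to 4960 to 5050 CPM. Mcm6, a subunit of the replicative helicase, was at 807 and 755 CPM in wild type and 407, 407 and 421 CPM in double mutants and fell 1.9-fold. The licensing factor gene Cdt1 fell 2.14-fold and the clamp loader subunit Rfc5 1.92-fold, while Ccne1, cyclin E1, rose 1.54-fold. Mitotic genes were mixed, with 7 of 25 higher and 11 lower. The mitotic kinase Plk1 fell 2.03-fold. Mki67, the proliferation marker Ki-67, went the other way, from 728 and 734 CPM in wild type to 1424, 1401 and 1466 CPM in double mutants (1.96-fold). The groups did not overlap for Mki67, and the difference from either single mutant passed the test too (adjusted p = 4.28e-05 against Srsf2 mutated, 2.79e-05 against Setd2 knockout).

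Both mutated genes act on transcripts and chromatin, so splicing and methylation genes were listed apart. Of 19 SR and SR-related genes, 10 rose and 3 fell. Srsf5 was at 154 and 157 CPM in wild type and 668, 680.4 and 716 CPM in double mutants, a 4.43-fold rise, and Pnisr rose 4.07-fold. Srsf1 fell 1.24-fold. The CLK kinases phosphorylate SR proteins. Clk1 was at 74.9 and 58.8 against 307, 294 and 313 CPM and rose 4.56-fold, with Clk4 up 3.71-fold and Clk3 2.74-fold. In the core spliceosome list 16 of 37 genes rose and 16 fell. The RNA-binding protein gene Hnrnph1 rose 2.56-fold and Sf3a1, a subunit of the branch-point complex, fell 2.08-fold. Clk1 and Srsf5 did not pass the test between double mutant and Srsf2 mutated cells (log2 0.04 and 0.05, adjusted p = 0.718 and 0.525). These are levels of whole genes, and exon inclusion was not measured.

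Of 23 genes that write, erase or read H3K36 methylation, 5 rose and 10 fell. The methyltransferase gene Nsd3 rose 1.71-fold, and Nsd1 was at 178 ± 7.11 and 194 ± 8.93 CPM (adjusted p = 0.375). The demethylase gene Kdm2b fell 2.18-fold. In Polycomb repressive complex 2, which places the repressive H3K27 mark, the core catalytic gene Ezh2 was at 149 ± 5.69 and 164 ± 9.29 CPM (adjusted p = 0.125, and 0.0116 as higher with at least 1 CPM in 3 libraries), Eed rose 1.51-fold and the histone chaperone gene Rbbp4 fell 1.52-fold. Phf1, an accessory subunit that reads the Setd2 mark, rose 4.82-fold from 6.3 ± 1.9 CPM. Of 32 tested genes recurrently mutated in myelodysplastic syndrome, 9 rose and 14 fell, among them Tet2, a DNA demethylation enzyme (3.09-fold higher), and Idh2, a mitochondrial enzyme (1.86-fold lower).

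The classes of RNA differed as well. Long noncoding genes rose in 45.3% and fell in 5.0% of 2118 tested, against 29.4% and 38.1% of 14070 protein-coding genes. The filter kept genes with enough reads in any group. Of the tested genes, 700 had no wild-type read and 38 had no double mutant read, so low genes could enter through the mutants alone. With at least 1 CPM in 3 libraries, the median log2 difference over all tested genes was 0.018, and shares by class were not computed there. Small nucleolar RNA genes rose in 83 of 123 and fell in 0. Malat1, a nuclear long noncoding RNA, was at 52 and 77.9 CPM in wild type and 951, 1042 and 1016 CPM in double mutants, and rose 15.4-fold. Neat1, the scaffold of nuclear paraspeckles, rose 14.9-fold. Both single mutants were also above wild type, with Malat1 at 754 ± 4.64 CPM in Setd2 knockout and 743 ± 178 CPM in Srsf2 mutated cells. Mitochondrial ribosomal RNA rose too, with mt-Rnr2 at 252 and 179 against 903, 931 and 904 CPM. The bulk libraries were described as mRNA libraries, and the part of library composition in the other differences was not tested.

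**Figure D5:**
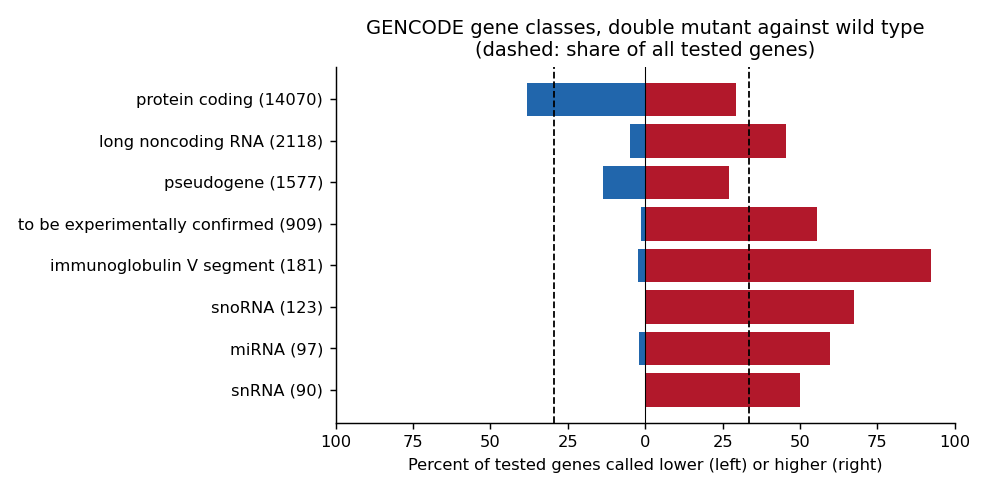
For each annotation class, bars give the percent of tested genes that were called higher and lower in double mutants. Protein-coding genes were more often lower (38.1%) than higher (29.4%), whereas long noncoding genes were more often higher (45.3%) than lower (5.0%), and most small nucleolar RNA and immunoglobulin variable genes were higher.

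Genes of protein synthesis and respiration fell by small amounts. Cytosolic ribosomal protein genes fell in 52 of 79 members and rose in 4, with a median log2 difference of -0.37 and summed levels of 79780 and 82120 CPM in wild type and 60340 to 61460 CPM in double mutants. Leaving out 1 library at a time gave between 0 (without wild type replicate 1) and 7 (without wild type replicate 2) ribosomal protein genes that rose. Rps7 fell 1.98-fold. Rpl29, a neighbour of Setd2 on the same chromosome, fell 2.36-fold to 275 ± 7.58 CPM, more than most of the list. Its level was 12.4 ± 3.17 CPM in Setd2 knockout and 588 ± 82.5 CPM in Srsf2 mutated cells. The part of its position in this change was not tested. Nuclear-encoded respiratory chain genes fell in 34 of 58 members and rose in 5, and the complex III gene Uqcrc1 fell 2.11-fold. Of 25 cholesterol synthesis genes, 11 fell and 5 rose. The synthesis enzyme gene Dhcr7 fell 2.49-fold, and Insig1, a feedback inhibitor of the pathway, rose 2.37-fold.

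The genes with the largest fold changes were, apart from Y-linked genes, of restricted expression. Apol11b, an apolipoprotein L family gene, was at 0.0941 and 0.047 CPM in wild type (4 and 2 reads) and 368, 374 and 383 CPM in double mutants. Its close copy Apol11a had no wild-type read and 67.6, 72.1 and 69.5 CPM in double mutants, at least 1976-fold higher against the floor of 3 reads, and reads of the copies may be split between them. Slfn14, a ribosome-associated nuclease of platelets and red cell precursors, had 1 and 0 reads in wild type and 47.1, 44.2 and 46.8 CPM in double mutants. The insulin-responsive glucose transporter gene Slc2a4 had none in wild type and 12.4, 12.4 and 12.3 CPM in double mutants. At the other end, beside Xist, Chit1, a chitinase of macrophages, fell 17.2-fold from 12.9 ± 1.99 CPM, the transcription factor gene Hnf4a 14.8-fold, and the receptor-like gene Ptk7, found on early progenitors, 15.4-fold. Ptk7 was also lower than in Srsf2 mutated cells (7.95 ± 0.681 CPM, adjusted p = 4.76e-09) and than in Setd2 knockout cells (3.96 ± 0.00235 CPM, adjusted p = 1.76e-06).

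The shares of changed genes near the mutated loci were set beside those of all genes. Within 20 Mb of Setd2 on chromosome 9, 35.0% of 383 tested genes were higher and 31.9% lower. Within 20 Mb of Srsf2 on chromosome 11 the shares were 30.3% and 36.1% of 468 genes. Over all tested genes they were 33.5% and 29.5%. Among named genes of at least 5 CPM near Setd2, the largest changes were in Cish, a cytokine-induced SOCS family gene (23.8-fold higher), and in Prss50, a serine protease gene that fell 10.4-fold from 7.56 ± 0.581 CPM and stood at 12.1 ± 0.623 CPM in Setd2 knockout cells. Near Srsf2 they were in Slc4a1, described above, and in Trim47, a ubiquitin ligase gene that fell 6.12-fold.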

How the data were processed

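Bulk RNA-seq libraries of mouse bone marrow HSPCs were analysed from the deposited tables, and the 3 single-cell samples were not analysed here. The deposited values are raw read counts per gene, and the tables also hold FPKM values (fragments scaled to gene length and library size) and gene lengths in bases (another deposited value) that the authors computed. Per the submitters' processing notes, the tools, named without a role, include the aligners STAR 2.6.1a and HISAT2 2.0.5, the counters featureCounts 2.0.1 and HTSeq 0.9.1, and SAMtools 1.7, Seurat 3.2.0 and DESeq2 1.22.2. Which of them made the counts, and whether reads were counted by strand, is not given in the sources used here. No deposited table compares this pair, so 2 tables were joined on the Ensembl identifier. All columns of single samples were used (0 left out). FPKM served only to list marker levels.

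Counts of all 10 bulk libraries were fitted together with edgeR 4.0.16 (limma 3.58.1, R 4.3.3; filterByExpr, TMM scaling, quasi-likelihood F-test, group as the only term), and p-values were adjusted by Benjamini-Hochberg over 19289 tested genes. The other groups add degrees of freedom to a spread that the wild-type pair estimates poorly. A gene was called at an adjusted p under 0.05. The SE of a log2 difference was its size divided by the root of F. The fit was run before use on simulated counts with few changed genes and the same spread in every group. That run does not check it for data like these, where most tested genes were called and spread differed between groups. Fold changes are ratios of mean CPM, and a gene with no read in a group was set against a floor of 3 reads over that group, which covers counting error only. Positions and classes are from GENCODE for GRCm38 and promoters from RefSeq. Libraries of a group were compared by a chi-square per gene, with a mean of 30.6 between the wild-type libraries and 5.75 to 8.24 between double mutant pairs, so none were counted as duplicates. Library numbers do not pair the groups, since deviations of same-numbered libraries correlated at 0.016 and 0.011.

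Genes named in the text follow a fixed rule: a set always named, the 10 largest changes in each direction at 5 CPM or more without overlap and leaving out predicted, pseudogene and receptor-segment genes, up to 4 members of smallest adjusted p in the main direction of each of 53 lists with up to 2 in the other direction and up to 2 not called, each list's median, lowest and highest member, defining cell markers, and up to 3 genes in each direction within 20 Mb of each mutated gene. Rel, Relb and Nfkb2 were added outside the rule, after their values were seen. Some genes that the rule names are not reported here. The comparison, lists and members were chosen with earlier results of these data known. Alternatives were other scalings, other filters on low counts, the 2 groups alone, a replicate block, removal of X and Y genes, DESeq2 1.42.0 and leaving out each library.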

Additional observations from a re-analysis of the deposited data

How the results depend on the processing

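The count of changed genes was 12153 in the main fit and moved little with other scalings or DESeq2. It was lower with a stricter filter on low counts and when a library was left out. It was 12086 with median-of-ratios scaling, 12069 with upper-quartile scaling, 12290 of 30461 genes with no filter, 10199 of 14147 with at least 1 CPM in 3 libraries, 12669 with only the compared groups, 11806 without X and Y genes and 12331 with DESeq2. Leaving out each library in turn gave 10135 to 11318. The part of changed genes that were higher lay between 50.4% and 55.6%, against 53.1%. With the library number as a replicate block, 11861 genes were changed. Whether the numbers pair the libraries is not known. All 66 alternative counts of genes over the comparisons were within 1.5 times the reported count, and of 1378 alternative counts of list members 36 were not. Among the genes named in the text, leaving out 1 library at a time changed the sign of 2, Ncr1 and Klrb1c. Both were under 1 CPM and did not pass the test. Their log2 differences ranged from -1.10 to 0.69 for Ncr1 and from -0.84 to 0.10 for Klrb1c. Over all tested genes, a few that passed in such a fit had the opposite sign to the main fit. When a wild-type library is left out, the remaining wild-type library is assumed to vary like the other groups. With 2 wild-type libraries, small differences at low counts were not detectable at this depth.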

Other observations

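Feedback inhibitors of MAP kinase signaling were mixed. Of 15 DUSP and Sprouty family genes, 9 rose and 3 fell. Dusp4 and Dusp10, phosphatases of the family, rose 13.6-fold and 7.39-fold, while Dusp7 fell 3.5-fold from 47.7 ± 4.12 CPM. Of 13 genes of antigen receptor recombination and the pre-B receptor, 7 rose and 3 fell, and 10 were lower in double mutants than in Srsf2 mutated cells. Rag1, which cuts antigen receptor genes, was at 11.9 ± 0.631 and 24 ± 0.76 CPM, a 2.02-fold rise, and Prkdc, a repair kinase of the same process, fell 1.45-fold.

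Endothelial and stromal genes rose in 7 and fell in 6 of 16 tested members. Cells isolated as HSPCs should lack many of these genes, but not all. Tek is also in the stem cell list, and Vwf, described above, is also in the megakaryocyte list. Col1a1, collagen type I, was at 0.517 and 0.565 CPM in wild type and 4.99, 5.79 and 5.79 CPM in double mutants, and Cxcl12, the niche chemokine, was at 0.423 ± 0.133 and 5.14 ± 0.572 CPM. Pdgfrb, a stromal growth factor receptor gene, fell 5.16-fold. Of 39 tested replication-dependent histone genes, 7 rose and 9 fell. Hist1h1c, a linker histone gene, rose 3.28-fold and Hist1h1b fell 2.24-fold.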
